A study of Setaria italica with 18 samples.

Results

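Leaves of the foxtail millet variety JK3, which the study classes as salt-tolerant, were compared after 24 h of treatment with diluted artificial seawater (J24) and before it, at 0 h (J0), with 3 libraries in each group. These are 6 of the 18 RNA-seq libraries of the series. The other 12 hold JK3 at 12 h (J12) and the salt-sensitive variety B175 at 24 h (B24), 12 h (B12) and 0 h (B0), again with 3 libraries each. Foxtail millet (Setaria italica) is a small C4 cereal, and its seedlings were grown in a climate chamber with day and night, treated with artificial seawater, which the methods trace to the Bohai Sea, and sampled at the second and the third leaf. J24 and J0 were taken at the same time of day, so that this comparison holds the daily cycle level, which the 12 h samples do not. The methods mention a distilled-water control, but a water-treated leaf of 24 h is not among the libraries analysed here, so salt treatment and 24 h of further growth cannot be told apart. The replicates are biological by the study's account, and the p-values given here measure only the spread between these samples.

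The measure is FPKM, the fragments of a gene scaled to its length and to the depth of the library. Of 29108 genes in the table, 23824 averaged 0.1 FPKM or more across all 18 libraries and were tested. J24 libraries held 34738627 to 38764886 fragments on genes and J0 libraries 36178528 to 38339416, recovered from the steps between FPKM values. Between 23477 and 24017 genes had fragments in a J24 library, against 23071 to 23483 in a J0 library. The share of these fragments taken by the 100 genes with the most fragments was 19.7 to 22.0% in J24 and 22.3 to 25.6% in J0. Correlations of log2(FPKM + 1) between replicates were 0.979 to 0.987 in J24 and 0.960 to 0.982 in J0, where replicate 2 stood somewhat apart. Among the B175 libraries used for comparison, B24 replicate 2 stood apart from its group, in which the correlations were 0.940 to 0.984.

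Salt acts on a leaf first as a shortage of water and then through sodium and chloride that build up in its cells. Plants are known to answer with abscisic acid (ABA), a hormone that closes stomata and switches on protective genes through receptors, type 2C protein phosphatases (PP2C) and SnRK2 kinases. The protective side includes late embryogenesis abundant (LEA) proteins and dehydrins, chaperones, compatible solutes such as proline, glycine betaine and raffinose sugars, enzymes that remove reactive oxygen, and transporters that move sodium into vacuoles or out of cells.

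In the J24 vs J0 comparison 1276 genes were up-regulated, 5.36% of those tested, and 491 were down-regulated, 2.06% of those tested. A differentially expressed gene (DEG) here has a log2 fold change above 1 or below -1 on the log2(FPKM + 1) scale and an adjusted p under 0.05 in limma's test with Benjamini-Hochberg adjustment, so 7.42% of the genes tested were DEGs. Passing the test means being such a DEG here, and each log2 fold change is given with its standard error over 3 libraries in each group. The scale understates the change of genes with low FPKM. Up-regulated genes thus made up 72.2% of the DEGs, and the median of all genes tested was a log2 fold change of 0.03. The libraries of the 2 groups did not overlap for 1246 of the up-regulated and 469 of the down-regulated genes, while over all genes tested J24 lay above every J0 library for 20.6% and below every J0 library for 14.8%. The up-regulated side also held the larger changes. There, 288 genes passed a log2 fold change of 2 and 88 passed 3, against 26 down-regulated genes beyond -2 and 1 beyond -3. Of the up-regulated genes, 249 had a mean under 1 FPKM in J0 and 14 were listed at 0 in every J0 library. Leaving out 1 library moved the total most where the replicate numbered 3 was left out, to 1016 DEGs without J24 replicate 3 and 1153 without J0 replicate 3, and 557 up-regulated and 125 down-regulated genes were called in every one of the 16 alternative analyses.

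**Figure D1:**
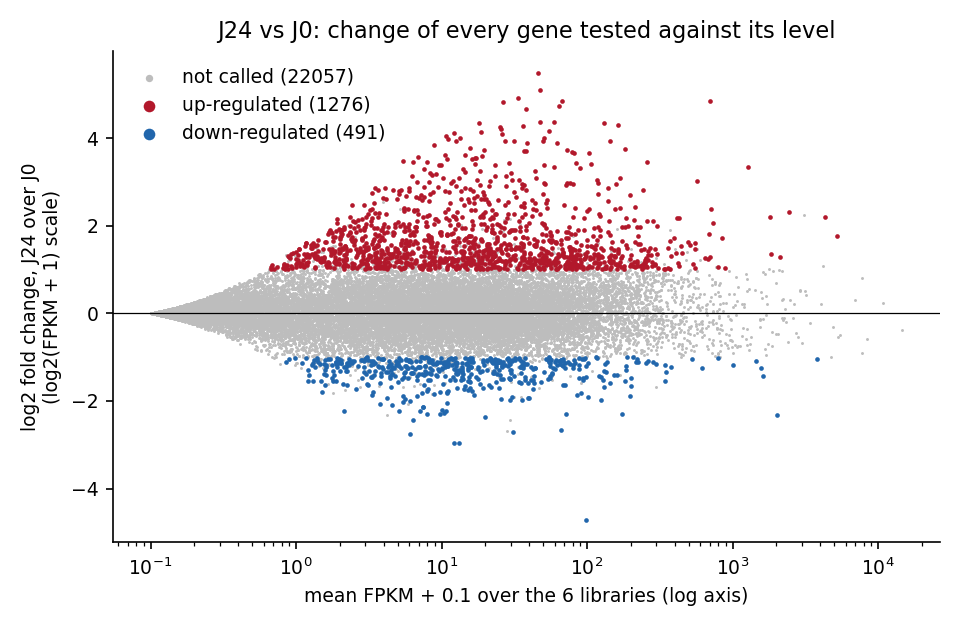
Change of each of the 23824 genes tested in J24 vs J0 (vertical axis, log2 fold change, J24 over J0, on the log2(FPKM + 1) scale) against its mean FPKM plus 0.1 over the 6 libraries (horizontal log axis). Red points are the 1276 up-regulated genes, blue points the 491 down-regulated genes and grey points genes that did not pass the test, with 288 red points above 2 and 26 blue points below -2.

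Among named DEGs the gene with the largest increase was a 12-oxophytodienoate reductase 1 (Seita.5G169400, where the digit before the G is the chromosome), of a family that includes an enzyme of jasmonate synthesis, with 26.6, 94.7 and 153 FPKM in J24, against 0.1502, 2.32 and 0.189 FPKM in J0 (log2 fold change 5.48 ± 0.95, adjusted p = 0.0023). By limma voom, a test on the fragments recovered from the FPKM values, this gene did not pass (adjusted p = 0.0655). The desiccation-related protein PCC13-62, first described in a resurrection plant, is encoded by Seita.9G406900, which had 51.2, 61.7 and 85.2 FPKM in J24, against 0.383, 1.34 and 2.12 FPKM in J0 (log2 fold change 4.92 ± 0.97, adjusted p = 0.00426). A second gene of this name, Seita.7G085400, had 17.4, 22.1 and 38.3 FPKM in J24, against 0.202, 1.23 and 0.546 FPKM in J0 (log2 fold change 3.99 ± 0.60, adjusted p = 0.00109). Both PCC13-62 genes were at most 2.12 FPKM in untreated JK3 leaves and at least 17.4 FPKM in every J24 library. LEA group 3 protein (Seita.3G162400) had 462, 1298 and 2353 FPKM in J24, against 27.2, 54.4 and 36.6 FPKM in J0 (log2 fold change 4.85 ± 0.69, adjusted p = 0.000887). Dehydrin DHN1 (Seita.5G166200) had 98.2, 305 and 538 FPKM in J24, against 14.0, 12.6 and 9.71 FPKM in J0 (log2 fold change 4.29 ± 0.95, adjusted p = 0.00743). The J24 replicates spread widely for both, with replicate 3 highest and replicate 1 lowest, yet each J24 library stood far above J0.

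LEA 17 (Seita.9G420500) had 45.1, 39.9 and 59.3 FPKM in J24, against 0.856, 3.37 and 0.999 FPKM in J0 (log2 fold change 4.26 ± 0.50, adjusted p = 0.000381). Lea14-A (Seita.5G014300) had 35.1, 50.4 and 60.7 FPKM in J24, against 0.727, 5.78 and 0.573 FPKM in J0 (log2 fold change 4.2005 ± 0.85, adjusted p = 0.00497). LEA 31 (Seita.6G123500) had 6.06, 14.1 and 45.2 FPKM in J24, against 0, 0.287 and 0 FPKM in J0 (log2 fold change 3.97 ± 0.89, adjusted p = 0.00818). The last was listed at 0 in a pair of J0 libraries, and its call was lost without J24 replicate 3 (adjusted p = 0.0514). By limma voom it did not pass (adjusted p = 0.115). PM19L (Seita.5G284700), a small plasma membrane protein related to a seed and cold protein of wheat, had 4.71, 24.7 and 33.96 FPKM in J24, against 0, 0 and 0.111 FPKM in J0 (log2 fold change 4.06 ± 0.59, adjusted p = 0.000987). Its J24 libraries spread as those of LEA 31 did, with replicate 1 lowest. Elongation factor 1-alpha (Seita.2G418000), which brings aminoacyl-tRNA to the ribosome, had 11.7, 58.8 and 87.2 FPKM in J24, against 0.197, 0.352 and 0.788 FPKM in J0 (log2 fold change 4.83 ± 0.73, adjusted p = 0.00113). An NADP-dependent malic enzyme (Seita.5G314300), which splits malate into pyruvate and carbon dioxide, had 49.0, 99.6 and 195 FPKM in J24, against 4.12, 3.40 and 3.96 FPKM in J0 (log2 fold change 4.37 ± 0.65, adjusted p = 0.00108). Berberine bridge enzyme-like Cyn d 4 (Seita.6G216800), of a family of flavin-linked oxidases, had 32.9, 30.1 and 84.2 FPKM in J24, against 0.0175, 5.69 and 1.69 FPKM in J0 (log2 fold change 4.09 ± 0.89, adjusted p = 0.0071). For all of these the lowest J24 library was above the highest J0 library, which was a condition of being named here and not a result.

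Among decreases, a proline-rich protein (Seita.7G260400) showed the only log2 fold change beyond -3, with 8.65, 1.23 and 2.87 FPKM in J24, against 177, 21.5 and 379.8 FPKM in J0 (log2 fold change -4.72 ± 0.98, adjusted p = 0.00558). Its J0 libraries themselves differed strongly, and J0 replicate 2 was the lowest. BAHD acyltransferase DCR (Seita.3G223000), needed for cutin in Arabidopsis, had 1.66, 3.95 and 0.841 FPKM in J24, against 18.7, 29.2 and 18.0 FPKM in J0 (log2 fold change -2.95 ± 0.54, adjusted p = 0.00283). Ethylene-response factor C3 (Seita.9G500100), which the study lists as SiDREB158, had 0.627, 4.67 and 1.23 FPKM in J24, against 8.12, 38.5 and 25.5 FPKM in J0 (log2 fold change -2.95 ± 0.55, adjusted p = 0.00309). Peroxidase 4 (Seita.8G015100), a secreted peroxidase, had 0.636, 1.25 and 0.492 FPKM in J24, against 7.58, 13.5 and 12.6 FPKM in J0 (log2 fold change -2.76 ± 0.37, adjusted p = 0.000674). Each of these fell to a few FPKM or less in most J24 libraries. Lipoxygenase 2.1 (Seita.4G215400), whose product is the first intermediate of jasmonate synthesis, had 0.823, 1.38 and 0.401 FPKM in J24, against 3.33, 23.3 and 8.09 FPKM in J0 (log2 fold change -2.43 ± 0.72, adjusted p = 0.0317). Cytochrome P450 736A117 (Seita.3G179600) had 2.94, 9.05 and 5.75 FPKM in J24, against 34.7, 22.7 and 43.1 FPKM in J0 (log2 fold change -2.38 ± 0.44, adjusted p = 0.00309). The call of lipoxygenase 2.1 was among the least stable, being lost without any J24 replicate or J0 replicate 2 or 3 (adjusted p = 0.0527 to 0.116). By limma voom it did not pass either (adjusted p = 0.0895).

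Ribonuclease 3 (Seita.2G289500), the most abundant gene among these decreases, had 907, 1236 and 231 FPKM in J24, against 3902, 2257 and 3639 FPKM in J0 (log2 fold change -2.31 ± 0.59, adjusted p = 0.0151). GL2-INTERACTING REPRESSOR 2 (Seita.7G092900) had 0.165, 4.48 and 2.59 FPKM in J24, against 15.8, 9.29 and 15.0 FPKM in J0 (log2 fold change -2.31 ± 0.66, adjusted p = 0.0266). ENHANCED PSEUDOMONAS SUSCEPTIBILITY 1 (Seita.5G385700), an acyltransferase of salicylic acid synthesis in Arabidopsis, had 22.5, 21.6 and 24.5 FPKM in J24, against 91.1, 162 and 108 FPKM in J0 (log2 fold change -2.30 ± 0.24, adjusted p = 0.000197). The repressor was nearly silent in J24 replicate 1, and the acyltransferase varied little within J24. PHOSPHATE-INDUCED 1 homolog (Seita.4G090500), a cell wall protein, had 51.3, 71.1 and 48.9 FPKM in J24, against 202, 321 and 341 FPKM in J0 (log2 fold change -2.30 ± 0.34, adjusted p = 0.00104). Phospholipase A1-Ibeta2 (Seita.9G320000), a chloroplast enzyme that frees fatty acids from membrane lipids, had 1.82, 4.37 and 1.11 FPKM in J24, against 27.4, 6.401 and 16.8 FPKM in J0 (log2 fold change -2.29 ± 0.70, adjusted p = 0.0362). Dehydration-responsive element-binding protein 1A (Seita.2G280300), a transcription factor of the cold response in Arabidopsis, had 1.06, 6.07 and 2.10 FPKM in J24, against 8.53, 23.8 and 20.3 FPKM in J0 (log2 fold change -2.27 ± 0.72, adjusted p = 0.0428). In all 6 the J24 libraries lay below the J0 libraries, which was again a condition of being named here. Their calls depended on single libraries for ribonuclease 3 without J24 replicate 3 or J0 replicate 3 (adjusted p = 0.0577 to 0.0842), the GL2-interacting repressor without J24 replicate 1 or 3 or J0 replicate 1 or 3 (adjusted p = 0.0612 to 0.114), the phospholipase without J24 replicate 1 or 3 or J0 replicate 1 or 3 (adjusted p = 0.0868 to 0.139) and the binding protein 1A without J24 replicate 1 or 3 or J0 replicate 2 or 3 (adjusted p = 0.109 to 0.14).

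Genes were next grouped by the protein their description names. Counts of 1 or 2 DEGs in a list are descriptions only, since leaving out 1 library, mostly J24 replicate 3 or J0 replicate 1 or 3, changed many of them. Among lists of at least 10 tested members, up-regulated genes made up the largest shares of LEA proteins, cytosolic ribosomal proteins and heat shock proteins, and down-regulated genes the largest shares of the leaf senescence, cytokinin, Calvin cycle and auxin lists.

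**Figure D2:**
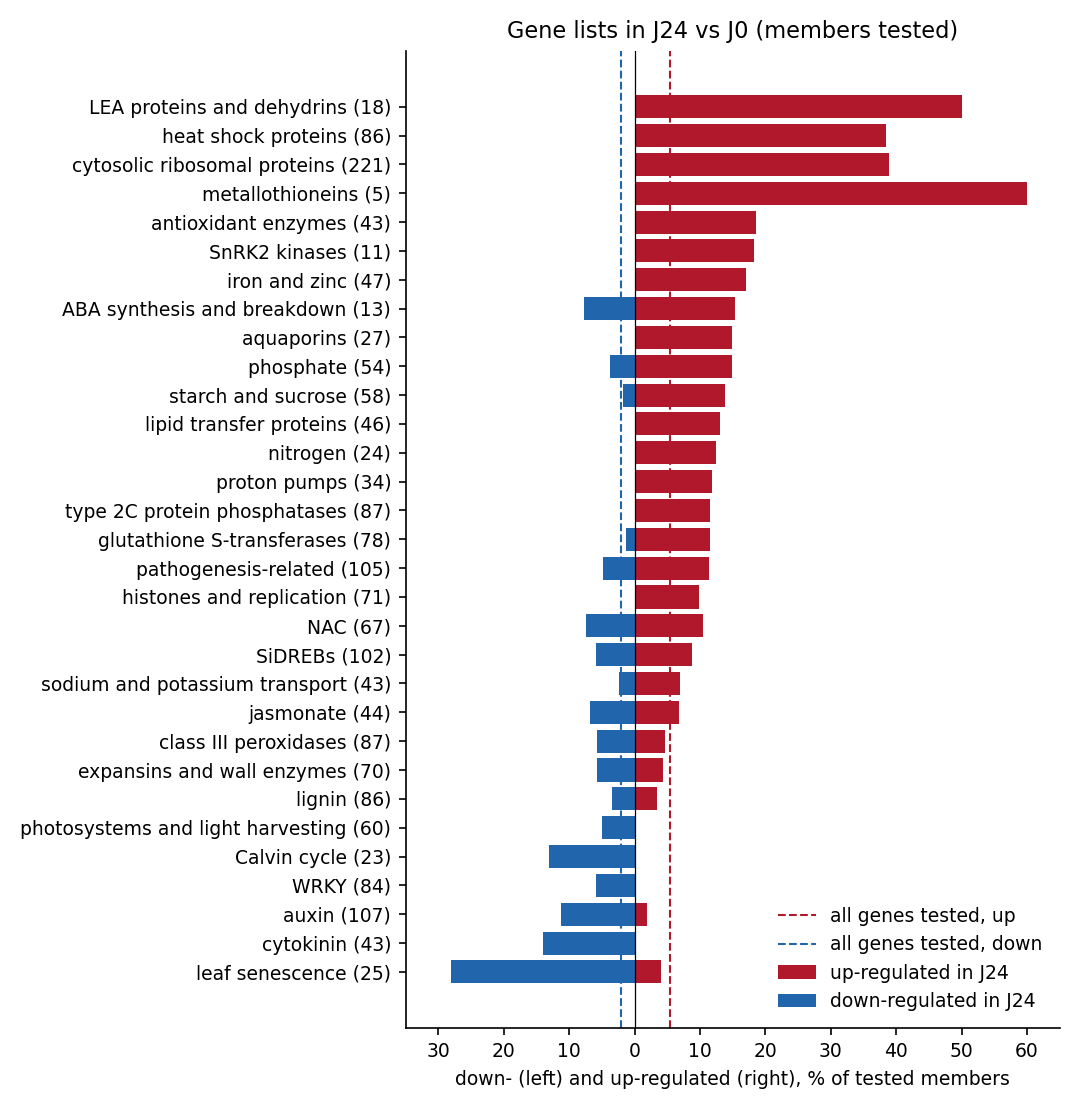
Share of the tested members of each gene list that was up-regulated (red, to the right) and down-regulated (blue, to the left) in J24 vs J0, in percent, with the number of tested members in brackets. Dashed lines mark the shares over all genes tested, 5.36% up and 2.06% down, and the LEA bar, for 9 of 18 members, is among the longest on the right with nothing on the left.

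Of 7 ABA receptors 0 passed limma's test and 0 had an unadjusted p under 0.05. 9-cis-Epoxycarotenoid dioxygenase (NCED) makes the first committed step of ABA synthesis. NCED4 (Seita.2G035400) had 162, 88.9 and 138 FPKM in J24, against 15.2, 56.9 and 21.6 FPKM in J0 (log2 fold change 2.19 ± 0.48, adjusted p = 0.00717). NCED1 (Seita.1G288400), in contrast, had 37.9, 79.3 and 64.8 FPKM in J24, against 94.2, 100.99 and 227 FPKM in J0 (log2 fold change -1.14 ± 0.33, adjusted p = 0.0295). The breakdown enzyme ABA 8'-hydroxylase 4 (Seita.3G116300) had 1.04, 2.34 and 1.87 FPKM in J24, against 0.339, 0.144 and 0.208 FPKM in J0 (log2 fold change 1.13 ± 0.23, adjusted p = 0.00466). The NCED genes thus moved in opposite directions. The whole list of 13 synthesis and breakdown genes, with 2 up-regulated and 1 down-regulated, summed to 549, 520.5 and 495 FPKM in J24, against 371, 497 and 591 FPKM in J0. Among receptors the most abundant, PYL3 (Seita.1G013900), had 65.1, 96.4 and 78.7 FPKM in J24, against 81.5, 102 and 91.6 FPKM in J0 (adjusted p = 0.587), and the groups overlapped. Leaving out 1 library ended the calls of NCED1 without J24 replicate 1 or 3 or J0 replicate 3 (adjusted p = 0.0677 to 0.15) and the hydroxylase without J24 replicate 2 (log2 fold change 0.98).

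PP2C enzymes hold the SnRK2 kinases inactive until a receptor with bound ABA captures them, and several PP2C genes are known to be induced by ABA itself. Of 87 tested PP2C genes 10 were up-regulated and 0 down-regulated, with a median log2 fold change of 0.00, so the change lay in a minority of the family. PP2C 59 (Seita.4G245500) had 28.5, 54.0 and 83.1 FPKM in J24, against 5.40, 2.54 and 6.54 FPKM in J0 (log2 fold change 3.21 ± 0.49, adjusted p = 0.00121). PP2C 8 (Seita.5G249000) was listed at 0 in every J0 library and had 2.51, 2.73 and 5.66 FPKM in J24 (adjusted p = 0.00138). Among the SnRK2 genes 2 of 11 were up-regulated, a count that was 1 without J24 replicate 3 or J0 replicate 1. It was 0 after quantile normalization. SAPK1 (Seita.9G379000), named as a stress-activated kinase in rice, had 134, 164 and 197 FPKM in J24, against 59.0, 88.7 and 77.1 FPKM in J0 (log2 fold change 1.13 ± 0.23, adjusted p = 0.00502). SAPK4 (Seita.5G395400) had 52.4, 50.6 and 62.6 FPKM in J24, against 31.8, 22.3 and 24.04 FPKM in J0 (log2 fold change 1.07 ± 0.24, adjusted p = 0.00851). Both kinases lay just above the fold limit, and the calls were lost for SAPK1 without J24 replicate 3 or J0 replicate 1 (log2 fold change 0.97 to 0.995) and SAPK4 without J24 replicate 3 or J0 replicate 2 (log2 fold change 0.97).

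LEA proteins and dehydrins are hydrophilic proteins that accumulate in drying seeds and stressed leaves and keep other proteins and membranes from aggregating. Here 9 of 18 tested members were up-regulated and 0 were down-regulated, with a median log2 fold change of 1.13, against 0.03 for all genes. Summed over 20 listed members the level was 7719, 8458 and 12806 FPKM in J24, against 2422, 3212 and 2942 FPKM in J0. The most abundant of them in J24 was another dehydrin DHN1 (Seita.8G115400), which had 3724, 3162 and 5371 FPKM in J24, against 835, 720.2 and 865 FPKM in J0 (log2 fold change 2.31 ± 0.45, adjusted p = 0.00421). This gene was already abundant in untreated JK3, unlike the dehydrin and the LEA genes above.

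Compatible solutes protect cells without charge. Among 6 genes of proline and betaine metabolism 1 was up-regulated and 1 was down-regulated. Betaine aldehyde dehydrogenase 1 (Seita.7G127300), which makes glycine betaine, had 182, 201 and 276 FPKM in J24, against 84.6, 100.3 and 74.9 FPKM in J0 (log2 fold change 1.32 ± 0.31, adjusted p = 0.0108). Proline dehydrogenase 2 (Seita.9G330700), which breaks proline down in mitochondria, had 26.3, 29.8 and 38.2 FPKM in J24, against 57.7, 126 and 54.2 FPKM in J0 (log2 fold change -1.21 ± 0.29, adjusted p = 0.0119). A gene described as gamma-glutamyl phosphate reductase (Seita.5G381100), an activity of the enzyme that makes the proline precursor in plants, lay outside the list by its description and was chosen after its values were seen. It had 133, 98.8 and 209 FPKM in J24, against 9.91, 6.44 and 15.6 FPKM in J0 (log2 fold change 3.68 ± 0.46, adjusted p = 0.000611). So the gene for synthesis was higher and the gene for breakdown lower in every J24 library than in any J0 library. Calls were lost for betaine aldehyde dehydrogenase without J24 replicate 3 (adjusted p = 0.0602) and proline dehydrogenase without J0 replicate 2 (log2 fold change -0.83).

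Raffinose family sugars are made from sucrose and galactinol. Of 30 tested trehalose and raffinose genes 2 were up-regulated and 1 was down-regulated, a count of up-regulated members that was 1 without J24 replicate 3 and 6 without J0 replicate 2. Galactinol-sucrose galactosyltransferase 2 (Seita.2G081000), a raffinose synthase by name, had 295, 292 and 502 FPKM in J24, against 151, 51.4 and 90.5 FPKM in J0 (log2 fold change 1.97 ± 0.46, adjusted p = 0.0102). Stachyose synthase (Seita.8G228200), the next enzyme of the route, had 5.50, 4.21 and 6.22 FPKM in J24, against 0.356, 0.445 and 0.818 FPKM in J0 (log2 fold change 2.03 ± 0.30, adjusted p = 0.000987). Galactinol-sucrose galactosyltransferase 1 (Seita.6G195300) moved the other way, with 1.36, 5.04 and 2.92 FPKM in J24, against 17.1, 15.2 and 18.0 FPKM in J0 (log2 fold change -2.22 ± 0.31, adjusted p = 0.000856). The first of these is by far the most abundant, and its call was lost without J24 replicate 3 (adjusted p = 0.0572).

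**Figure D3:**
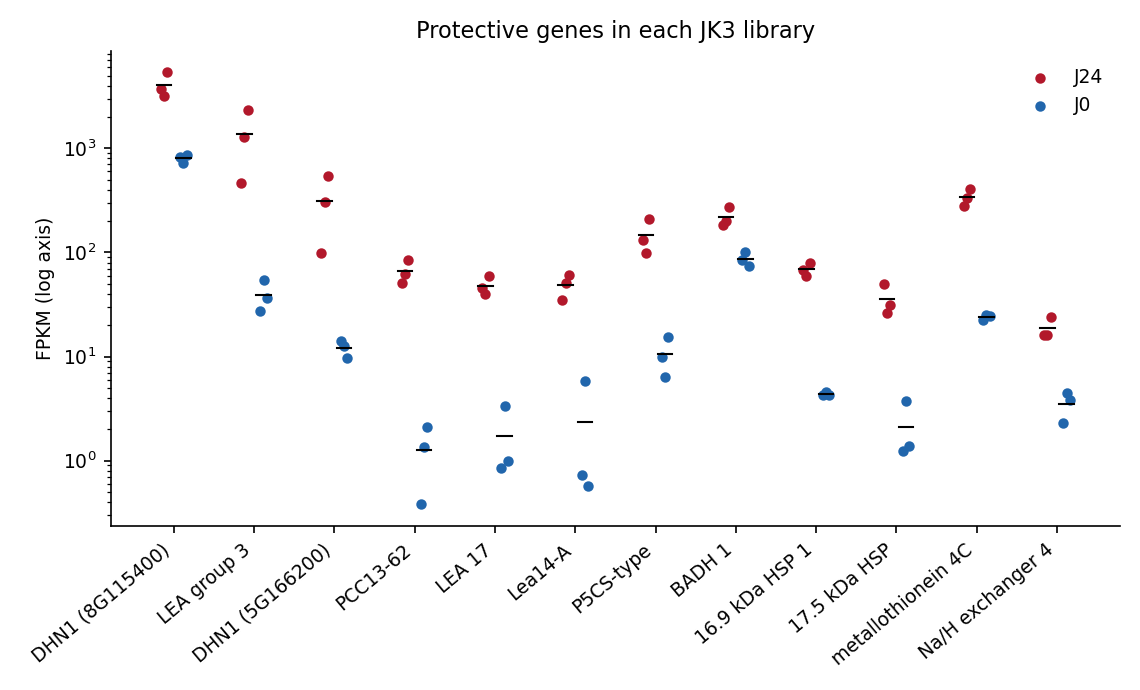
FPKM (log axis) of 12 protective genes in each of the 3 J24 (red) and 3 J0 (blue) libraries, with a short line at the group mean. All 12 were picked from genes up-regulated in J24, and protective genes that fell or did not pass the test are not shown. Points of J24 therefore lie above those of J0 by choice of genes, from a dehydrin at 3162 to 5371 FPKM in J24 down to sodium/hydrogen exchanger 4 at 16.03 to 24.17 FPKM.

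Heat shock proteins are chaperones that hold or refold damaged proteins. Of 86 tested members 33 were up-regulated and 0 were down-regulated, with a median log2 fold change of 0.77. Their summed level was 10695, 7052 and 8132 FPKM in J24, against 3833, 4821 and 4354 FPKM in J0. J24 replicate 1 had the highest sum, and no J0 library reached any J24 library. The strongest were small heat shock proteins. The class I protein Seita.5G092900 had 67.5, 59.6 and 80.1 FPKM in J24, against 4.24, 4.58 and 4.24 FPKM in J0 (log2 fold change 3.70 ± 0.50, adjusted p = 0.000669), and the class II protein Seita.5G131300 had 49.5, 26.0 and 31.6 FPKM in J24, against 1.23, 3.74 and 1.37 FPKM in J0 (log2 fold change 3.60 ± 0.49, adjusted p = 0.000716). Small heat shock genes often stand in near-identical copies, between which the counting of fragments may have divided reads. Metallothioneins bind metal ions and scavenge radicals, and 3 of 5 were up-regulated. Metallothionein-like protein 4C (Seita.3G326800) had 280.2, 330.0 and 405 FPKM in J24, against 22.7, 25.2 and 24.3 FPKM in J0 (log2 fold change 3.74 ± 0.70, adjusted p = 0.00319). Metallothionein-like protein type 2 (Seita.5G103100) had 648, 1105 and 1242 FPKM in J24, against 461, 335 and 395 FPKM in J0 (log2 fold change 1.29 ± 0.28, adjusted p = 0.00672). The sum of the 5 genes nevertheless overlapped between groups, at 17954, 19786 and 17642 FPKM in J24, against 22557, 17789 and 21238 FPKM in J0, since a pair of genes that did not pass the test, 1A and 3A, made up most of it.

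Genes of water and ion transport changed in small numbers. Aquaporins are water channels, and 4 of 27 were up-regulated, a count that was 1 without J0 replicate 3 and 2 without any J24 replicate or J0 replicate 1. TIP4-2 (Seita.3G082100), of the vacuole membrane by name, had 23.0, 23.8 and 35.5 FPKM in J24, against 3.72, 4.55 and 5.26 FPKM in J0 (log2 fold change 2.35 ± 0.36, adjusted p = 0.00125). PIP2-7 (Seita.2G291500), of the plasma membrane by name, had 9.66, 8.48 and 11.996 FPKM in J24, against 6.22, 2.10 and 4.93 FPKM in J0 (log2 fold change 1.10 ± 0.37, adjusted p = 0.0499) and was the weakest call of the set. Sodium/hydrogen exchanger 4 (Seita.4G138500), of a family that moves sodium into vacuoles, had 16.03, 16.05 and 24.2 FPKM in J24, against 2.30, 4.43 and 3.81 FPKM in J0 (log2 fold change 2.14 ± 0.32, adjusted p = 0.00107). It was up-regulated with cation/calcium exchanger 1 (Seita.9G244700), which had 29.0, 24.3 and 36.6 FPKM in J24, against 17.6, 7.78 and 10.2 FPKM in J0 (log2 fold change 1.32 ± 0.25, adjusted p = 0.00344), and these were the 2 DEGs among 29 antiporters. The call of PIP2-7 was lost without any J24 replicate or J0 replicate 2 or 3 (adjusted p = 0.0731 to 0.183). PIP2-7 did not pass by limma voom (adjusted p = 0.0711) or after quantile normalization (adjusted p = 0.0619).

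Proton pumps build the gradient that such exchangers use. Of 34 tested pump genes 4 were up-regulated, 0 were down-regulated, and 32 had a positive log2 fold change, with a median of 0.48. A proteolipid subunit of the vacuolar ATPase (Seita.7G285900) had 337, 349 and 393 FPKM in J24, against 167, 149 and 131 FPKM in J0 (log2 fold change 1.27 ± 0.18, adjusted p = 0.000953). Plasma membrane ATPase 1 (Seita.9G134900) had 14.0, 23.7 and 27.4 FPKM in J24, against 3.96, 2.86 and 3.57 FPKM in J0 (log2 fold change 2.30 ± 0.51, adjusted p = 0.0076). Among 43 sodium and potassium channels and transporters 3 were up-regulated and 1 was down-regulated. Potassium transporter 21 (Seita.9G182300) had 1.32, 2.74 and 3.63 FPKM in J24, against 0.0686, 0.0108 and 0.173 FPKM in J0 (log2 fold change 1.66 ± 0.23, adjusted p = 0.000852). The beta subunit of a voltage-gated potassium channel (Seita.1G366000) had 83.6, 93.4 and 119.6 FPKM in J24, against 30.7, 39.4 and 42.2 FPKM in J0 (log2 fold change 1.37 ± 0.18, adjusted p = 0.000611). Potassium channel KAT1 (Seita.1G020100), a guard cell channel that takes in potassium when stomata open in Arabidopsis, had 13.4, 18.5 and 16.8 FPKM in J24, against 32.1, 51.8 and 55.0 FPKM in J0 (log2 fold change -1.43 ± 0.23, adjusted p = 0.00159). KAT1 was thus lower in each J24 library than in each J0 library.

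The cytosolic ribosomal proteins formed the most numerous group of DEGs. Of 221 tested members 86 were up-regulated and 0 were down-regulated, and 220 had a positive log2 fold change, with a median of 0.88. Summed over the list the level was 31361, 33470.0 and 34590.2 FPKM in J24, against 16435, 21392 and 18069.7 FPKM in J0. The J24 libraries lay above all J0 libraries for 201 members, while many log2 fold changes were near the limit of 1, and the count of DEGs ranged from 65 to 108 over the alternatives. Among those with the largest log2 fold changes were genes of low level. They were acidic ribosomal protein P2A (Seita.2G097600), with 1.13, 9.43 and 19.3 FPKM in J24, against 0, 0 and 0.384 FPKM in J0 (log2 fold change 2.78 ± 0.69, adjusted p = 0.0139), and L40 (Seita.2G302900), which was listed at 0 in every J0 library and had 0.405, 7.99 and 21.7 FPKM in J24 (adjusted p = 0.0291). Neither call held on leaving out every library in turn, being lost for P2A without J24 replicate 3 (adjusted p = 0.0803) and L40 without J24 replicate 2 or 3 or any J0 replicate (adjusted p = 0.0564 to 0.153). L40 did not pass by limma voom (adjusted p = 0.0716). Of the organellar ribosomal proteins 5 of 120 were up-regulated, or 3 without J24 replicate 3 or J0 replicate 3, and 3 down-regulated, or 0 without J24 replicate 3 or J0 replicate 3 and 1 without J0 replicate 1, with a median of 0.25, and of the proteasome, which degrades tagged proteins, 1 of 68 was up-regulated.

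Histone and replication genes, which are used when cells copy DNA, included 7 up-regulated and 0 down-regulated members of 71. Histone H2AXa (Seita.9G112800), a variant that marks DNA breaks, had 104, 102 and 148 FPKM in J24, against 19.4, 21.1 and 20.02 FPKM in J0 (log2 fold change 2.47 ± 0.39, adjusted p = 0.00138). Histone H2A.6 (Seita.3G063000) had 4.15, 11.4 and 19.0 FPKM in J24, against 1.37, 0.505 and 1.85 FPKM in J0 (log2 fold change 2.32 ± 0.44, adjusted p = 0.00344). In nitrogen use 3 of 24 genes were up-regulated, a count that was 1 without J24 replicate 3. Cytosolic glutamine synthetase 1-3 (Seita.9G118300), which fixes ammonium, had 15.4, 37.0 and 38.2 FPKM in J24, against 1.10, 1.20 and 1.06 FPKM in J0 (log2 fold change 3.77 ± 0.54, adjusted p = 0.000953). A peptide/nitrate transporter (Seita.5G040300) had 35.8, 52.6 and 79.1 FPKM in J24, against 13.9, 14.1 and 13.1 FPKM in J0 (log2 fold change 1.88 ± 0.46, adjusted p = 0.0124), a call that was lost without J24 replicate 3 (adjusted p = 0.0677). Glutamine synthetase 1-3 was close to 1 FPKM in every J0 library and above 15 FPKM in every J24 library.

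Photosynthesis genes had lower values in J24, mostly without passing the test. Of 60 tested genes of photosystems and light harvesting 3 were down-regulated and 0 were up-regulated, while 47 had a negative log2 fold change, with a median of -0.48. The list summed to 23893, 28971 and 22614 FPKM in J24, against 37236, 33058 and 40743 FPKM in J0. Photosystem I subunit III (Seita.9G069300) had 871, 1106 and 786 FPKM in J24, against 1920.3, 1927 and 2817 FPKM in J0 (log2 fold change -1.26 ± 0.32, adjusted p = 0.0152). The antenna protein Seita.1G330600 had 65.6, 49.4 and 37.3 FPKM in J24, against 143, 71.9 and 129 FPKM in J0 (log2 fold change -1.14 ± 0.36, adjusted p = 0.0395). Calvin cycle genes, which fix carbon dioxide, included 3 down-regulated and 0 up-regulated of 23, with a median of -0.54. A Rubisco small chain gene (Seita.3G269600) had 365, 836 and 683 FPKM in J24, against 1731, 877 and 1568 FPKM in J0 (log2 fold change -1.17 ± 0.33, adjusted p = 0.0257), and Rubisco activase (Seita.3G023400) had 14.5, 13.2 and 10.1 FPKM in J24, against 41.8, 26.0 and 37.2 FPKM in J0 (log2 fold change -1.39 ± 0.27, adjusted p = 0.00406). Small chain genes stand in near-identical copies, between which fragments may have been divided. The 3 photosystem calls numbered 0 without J24 replicate 3 or J0 replicate 3 and 1 without J0 replicate 1, the 3 Calvin cycle calls 1 without J24 replicate 1 or 3 or J0 replicate 1 or 3 and 6 without J0 replicate 2, and among the genes named here calls were lost for subunit III without J24 replicate 3 or J0 replicate 3 (adjusted p = 0.0699 to 0.0743), the antenna protein without J24 replicate 2 or 3 or J0 replicate 1 or 3 (adjusted p = 0.0838 to 0.161) and the small chain without J24 replicate 1 or 3 or J0 replicate 1 or 3 (adjusted p = 0.0572 to 0.114).

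In a C4 leaf the mesophyll first captures carbon dioxide with phosphoenolpyruvate (PEP) carboxylase, and the bundle sheath releases it again for Rubisco. Of 11 mesophyll enzymes 1 was up-regulated, and of 14 bundle sheath enzymes 1 was up-regulated and 1 down-regulated. The mesophyll enzymes summed to 11781, 12369 and 8338 FPKM in J24, against 13657, 14372 and 15960.5 FPKM in J0, and the bundle sheath enzymes to 3812, 4766 and 4224 FPKM in J24, against 7124, 4895 and 6323 FPKM in J0. In bulk leaf tissue, fewer cells of a type and less RNA per cell cannot be told apart. The main PEP carboxylase 1 (Seita.4G175200) had 4764, 5279 and 3106 FPKM in J24, against 5733, 6297 and 6775 FPKM in J0 (log2 fold change -0.55 ± 0.34, adjusted p = 0.294). Carbonic anhydrase (Seita.5G240000) had 5036, 5161 and 3413 FPKM in J24, against 5979, 5977 and 7049.9 FPKM in J0 (log2 fold change -0.50 ± 0.40, adjusted p = 0.425). The chloroplast NADP-malic enzyme (Seita.5G134300) had 2266, 2541 and 2125 FPKM in J24, against 3509, 2868 and 3128 FPKM in J0 (log2 fold change -0.45 ± 0.21, adjusted p = 0.146). All 3 were lower in each J24 library than in each J0 library but did not pass the test. These genes of leaf photosynthesis were abundant in both groups. A minor PEP carboxylase 2 (Seita.2G173700), in contrast, had 129, 114 and 123 FPKM in J24, against 54.1, 50.6 and 38.8 FPKM in J0 (log2 fold change 1.35 ± 0.36, adjusted p = 0.0198), a call lost without J24 replicate 1 or 3 or J0 replicate 3 (adjusted p = 0.0522 to 0.0809).

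Chlorophyll synthesis held 1 down-regulated gene of 19, the ChlH subunit of magnesium chelatase (Seita.7G217800), with 72.9, 60.5 and 51.0 FPKM in J24, against 159, 92.4 and 136 FPKM in J0 (log2 fold change -1.04 ± 0.26, adjusted p = 0.0141). In starch and sucrose metabolism 8 of 58 genes were up-regulated and 1 was down-regulated, the first count being 4 without J24 replicate 3. Beta-amylase 1 (Seita.9G229700), which breaks starch down to maltose, had 459.8, 162 and 241 FPKM in J24, against 49.8, 44.5 and 51.6 FPKM in J0 (log2 fold change 2.41 ± 0.26, adjusted p = 0.000278). Beta-amylase 3 (Seita.9G317500) had 358, 409 and 320.2 FPKM in J24, against 736, 995 and 866 FPKM in J0 (log2 fold change -1.25 ± 0.24, adjusted p = 0.00368). So these beta-amylases, both of the chloroplast by name, moved in opposite directions. The small subunit 1 of ADP-glucose synthesis (Seita.2G168000), the step that commits sugar to starch, had 11.6, 19.1 and 30.5 FPKM in J24, against 3.39, 2.28 and 4.55 FPKM in J0 (log2 fold change 2.21 ± 0.38, adjusted p = 0.00239). Of 25 genes whose descriptions name senescence or chlorophyll breakdown, 7 were down-regulated and 1 was up-regulated. The protease SAG39 (Seita.2G078600) had 1.72, 1.09 and 1.78 FPKM in J24, against 22.9, 2.78 and 13.6 FPKM in J0 (log2 fold change -2.13 ± 0.66, adjusted p = 0.037). DIN1 (Seita.4G284100) had 3.70, 7.11 and 9.21 FPKM in J24, against 21.9, 15.4 and 23.995 FPKM in J0 (log2 fold change -1.53 ± 0.47, adjusted p = 0.0353). The protease SAG12 (Seita.2G129000), a marker of late senescence in Arabidopsis, had 56.9, 78.3 and 92.6 FPKM in J24, against 30.6, 44.4 and 29.9 FPKM in J0 (log2 fold change 1.09 ± 0.30, adjusted p = 0.0219). The 7 decreases numbered 1 without J24 replicate 1 or 3, 2 without J0 replicate 3 and 3 without J24 replicate 2 or J0 replicate 1, and calls were lost for ChlH without J24 replicate 3 or J0 replicate 1 or 3 (adjusted p = 0.0541 to 0.0702), SAG39 without any J24 replicate or J0 replicate 1 or 3 (adjusted p = 0.071 to 0.143), DIN1 without any J24 replicate or J0 replicate 1 or 3 (adjusted p = 0.054 to 0.13) and SAG12 without J24 replicate 2 or 3 or J0 replicate 1 or 3 (adjusted p = 0.0592 to 0.102). SAG39 did not pass by limma voom (adjusted p = 0.111).

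The 0 h and 24 h samples were taken a day apart, and clock genes were read with that in view. Of 20 tested clock genes 1 was a DEG in J24 vs J0, while 7 had an adjusted p under 0.05 in limma's test at any fold. Over all 23824 genes tested 3974 did. Of the clock genes 10 had an unadjusted p under 0.05, against 7409 of all genes tested. J24 lay above every J0 library for 4 of the 20, against 20.6% of all genes tested. It lay below every J0 library for 7, against 14.8% of all genes tested. The list summed to 793, 838 and 772 FPKM in J24, against 1024, 849.9 and 1079 FPKM in J0. GIGANTEA (Seita.5G129500), which peaks toward evening in other plants, had 2.04, 8.57 and 3.75 FPKM in J0, 279, 272 and 267 FPKM in J12 and 23.7, 22.9 and 21.7 FPKM in J24 (log2 fold change 2.1996 ± 0.30, adjusted p = 0.000754 for J24 over J0). REVEILLE 2 (Seita.4G288100), a morning factor, had 332, 258 and 379 FPKM in J0, 1.20, 0.706 and 1.55 FPKM in J12 and 278, 293 and 271 FPKM in J24. REVEILLE 1 (Seita.7G212900) had 2.40, 1.29 and 1.90 FPKM in J0, 237, 203 and 199 FPKM in J12 and 1.14, 1.97 and 2.49 FPKM in J24. Both genes thus differed widely between 12 h and the other times, while their 0 h and 24 h libraries overlapped. REVEILLE 3 (Seita.1G272700) had 118, 119 and 106 FPKM in J24, against 232, 129 and 214 FPKM in J0 (log2 fold change -0.70 ± 0.23, adjusted p = 0.0453) and stayed within the fold limit. It was lower in each J24 library than in each J0 library. PRR73 (Seita.9G445200) had 74.5, 82.5 and 56.1 FPKM in J24, against 36.5, 108 and 66.1 FPKM in J0 (adjusted p = 0.821), and PCL1 (Seita.5G379100) had 6.72, 8.95 and 9.75 FPKM in J24, against 9.18, 11.7 and 10.8 FPKM in J0 (adjusted p = 0.447).

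**Figure D4:**
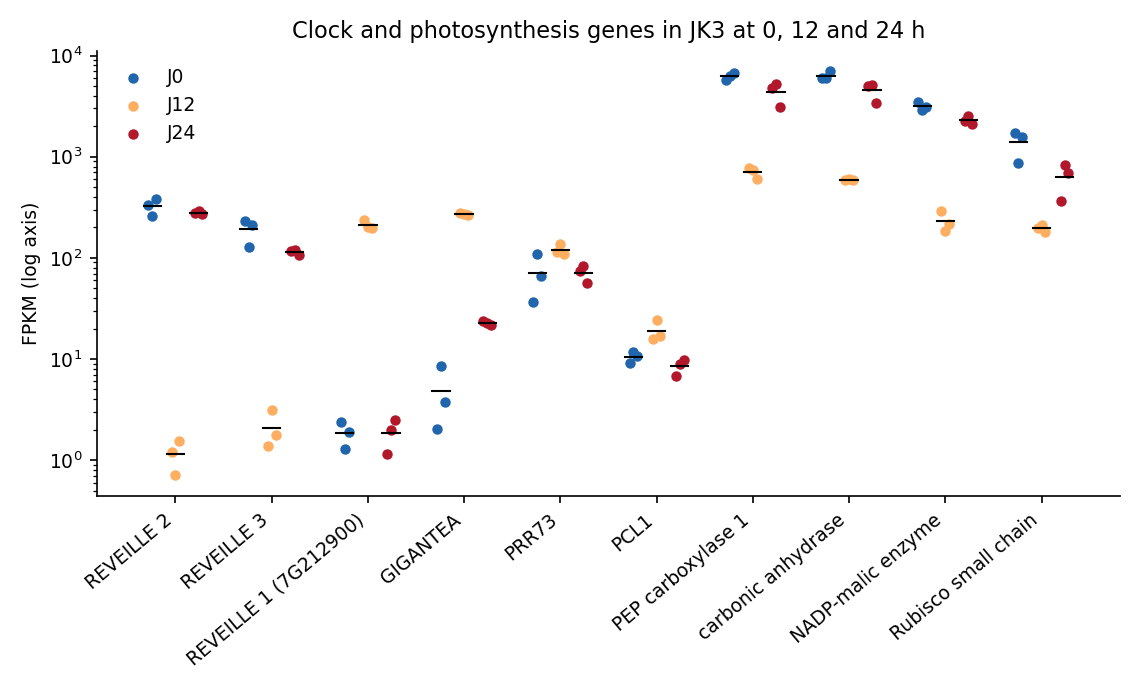
FPKM (log axis) of 6 clock genes and 4 photosynthesis genes in each JK3 library at 0 h (J0), 12 h (J12) and 24 h (J24), with a short line at the mean of each group. REVEILLE 2 lies between 258 and 379 FPKM in J0, under 2 FPKM in J12 and between 271 and 293 FPKM in J24, and the GIGANTEA points of J24 (21.7 to 23.7 FPKM) lie above those of J0 (2.04 to 8.57 FPKM).

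Among auxin and cytokinin genes decreases outnumbered increases. Auxin genes included 12 down-regulated and 2 up-regulated of 107, with a median of -0.26. The repressor IAA4 (Seita.5G033700) had 7.28, 14.0 and 11.4 FPKM in J24, against 52.3, 25.6 and 67.2 FPKM in J0 (log2 fold change -1.99 ± 0.34, adjusted p = 0.00228). IAA2 (Seita.6G107300) had 2.67, 5.58 and 2.96 FPKM in J24, against 12.8, 11.7 and 11.8 FPKM in J0 (log2 fold change -1.52 ± 0.25, adjusted p = 0.00167). Upward, auxin-induced protein X10A (Seita.4G241400) had 4.05, 7.98 and 17.3 FPKM in J24, against 0.288, 2.65 and 0.204 FPKM in J0 (log2 fold change 2.40 ± 0.67, adjusted p = 0.0237), and SAUR71 (Seita.3G398000), of a family of small auxin-responsive growth genes, had 1.67, 2.49 and 2.24 FPKM in J24, against 0, 0 and 0.0757 FPKM in J0 (log2 fold change 1.60 ± 0.30, adjusted p = 0.00301). The 12 decreases numbered 7 without J24 replicate 3 or J0 replicate 3, and the call of X10A was lost without J24 replicate 2 or 3 or J0 replicate 1 or 3 (adjusted p = 0.0534 to 0.118). X10A did not pass by limma voom (adjusted p = 0.0639). Cytokinin genes included 6 down-regulated and 0 up-regulated of 43, the count of decreases being 2 without J0 replicate 1 or 3 and 3 without J24 replicate 1 or 3. Response regulator ORR2 (Seita.1G195000) had 5.62, 5.03 and 5.51 FPKM in J24, against 20.4, 19.4 and 19.6 FPKM in J0 (log2 fold change -1.71 ± 0.29, adjusted p = 0.00213). ORR6 (Seita.3G019000) had 18.6, 40.2 and 25.1 FPKM in J24, against 105, 55.6 and 56.2 FPKM in J0 (log2 fold change -1.34 ± 0.43, adjusted p = 0.0446). Such type A regulators are switched on by cytokinin in rice and Arabidopsis, and ORR6 lost its call without J24 replicate 1 or 3 or any J0 replicate (adjusted p = 0.0513 to 0.156).

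Of 22 gibberellin genes 2 were up-regulated. Gibberellin 20 oxidase 2 (Seita.7G259700), a synthesis enzyme, had 21.1, 16.6 and 18.2 FPKM in J24, against 6.82, 6.11 and 5.24 FPKM in J0 (log2 fold change 1.48 ± 0.19, adjusted p = 0.000611). Gibberellin 2-beta-dioxygenase 3 (Seita.5G147400), which inactivates the hormone, had 11.2, 8.83 and 10.1 FPKM in J24, against 5.35, 3.48 and 4.07 FPKM in J0 (log2 fold change 1.07 ± 0.29, adjusted p = 0.0222). A gene of synthesis and a gene of inactivation thus both rose. Of 44 jasmonate genes 3 were up-regulated and 3 down-regulated, the decreases numbering 1 without J24 replicate 1 or 3 or J0 replicate 3. Each count was 6.82% of the list, against 5.36% of all genes tested for increases and 2.06% for decreases. Negative log2 fold changes numbered 30 and positive ones 14, with a median of -0.26. TIFY 10b (Seita.2G388400), a repressor of jasmonate signaling, had 132, 231 and 174.6 FPKM in J24, against 516, 459 and 557 FPKM in J0 (log2 fold change -1.54 ± 0.35, adjusted p = 0.0087). A second 12-oxophytodienoate reductase 1 (Seita.4G078300) was listed at 0 in every J0 library and had 2.66, 5.744 and 11.001 FPKM in J24 (adjusted p = 0.00505). TIFY 11a (Seita.9G518100) had 13.7, 10.1 and 26.3 FPKM in J24, against 2.85, 8.15 and 5.72 FPKM in J0 (log2 fold change 1.41 ± 0.42, adjusted p = 0.0306), so repressors of 1 family moved both ways. Leaving out 1 library ended the calls of the dioxygenase without J24 replicate 1 or 3 or J0 replicate 2 or 3 (adjusted p = 0.0626 to 0.0723) and TIFY 11a without J24 replicate 1 or 3 or J0 replicate 1 or 3 (adjusted p = 0.0537 to 0.154).

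No transcription factor family had most of its members among the DEGs. NAC genes, of which many respond to drought and salt, included 7 up-regulated and 5 down-regulated of 67. NAC 77 (Seita.8G008000) had 8.43, 19.2 and 24.4 FPKM in J24, against 2.22, 6.73 and 3.77 FPKM in J0 (log2 fold change 1.78 ± 0.50, adjusted p = 0.0241). NAC 100 (Seita.1G209000) had 10.2, 24.1 and 43.6 FPKM in J24, against 5.41, 6.50 and 5.54 FPKM in J0 (log2 fold change 1.77 ± 0.48, adjusted p = 0.0211). A NAC 21/22 gene (Seita.3G386200), of a name tied to root auxin response in Arabidopsis, had 21.8, 26.8 and 26.8 FPKM in J24, against 43.3, 139 and 63.9 FPKM in J0 (log2 fold change -1.51 ± 0.34, adjusted p = 0.00799). Another NAC 21/22 gene (Seita.6G032700) had 3.75, 26.7 and 16.6 FPKM in J24, against 19.3, 123 and 50.4 FPKM in J0 (log2 fold change -1.94 ± 0.59, adjusted p = 0.0351), with overlapping groups. The NAC increases numbered 3 without J24 replicate 3 or J0 replicate 3 and the decreases 3 without J24 replicate 1 or J0 replicate 3. WRKY genes, of which many act in defense, included 5 down-regulated of 84 and 0 up-regulated. WRKY 51 (Seita.5G294500) had 3.69, 2.55 and 3.70 FPKM in J24, against 10.3, 28.0 and 16.2 FPKM in J0 (log2 fold change -2.06 ± 0.42, adjusted p = 0.00491). WRKY71 (Seita.4G197100) had 14.9, 28.7 and 7.03 FPKM in J24, against 60.6, 82.2 and 40.1 FPKM in J0 (log2 fold change -1.93 ± 0.60, adjusted p = 0.0377). The WRKY decreases numbered 1 without J24 replicate 3 or J0 replicate 2 and 2 without J24 replicate 1 or J0 replicate 3. The increases numbered 1 without J24 replicate 2 and 3 without J0 replicate 2. Leaving out 1 library ended the calls of NAC 77 without J24 replicate 2 or 3 or J0 replicate 1 or 3 (adjusted p = 0.0721 to 0.113), NAC 100 without J24 replicate 2 or 3 or J0 replicate 1 or 3 (adjusted p = 0.0518 to 0.116), the second NAC 21/22 gene without J24 replicate 1 or 3 or J0 replicate 2 or 3 (adjusted p = 0.0667 to 0.153) and WRKY71 without J24 replicate 1 or 3 or any J0 replicate (adjusted p = 0.0592 to 0.174).

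HD-ZIP genes, which join a homeobox to a leucine zipper, included 5 up-regulated and 2 down-regulated of 40. HOX24 (Seita.1G253700) had 635, 481 and 552 FPKM in J24, against 101.1, 281 and 190.0 FPKM in J0 (log2 fold change 1.65 ± 0.39, adjusted p = 0.0104). HOX7 (Seita.1G201700) had 44.8, 51.6 and 66.7 FPKM in J24, against 19.9, 13.9 and 19.5 FPKM in J0 (log2 fold change 1.56 ± 0.42, adjusted p = 0.0208). Downward, HOX11 (Seita.2G224000) had 9.77, 8.58 and 6.17 FPKM in J24, against 15.0, 30.8 and 20.6 FPKM in J0 (log2 fold change -1.30 ± 0.31, adjusted p = 0.0114), and HOX15 (Seita.9G301000) had 94.3, 121 and 109.9 FPKM in J24, against 175.2, 238 and 365 FPKM in J0 (log2 fold change -1.19 ± 0.22, adjusted p = 0.00292). The increases numbered 2 without J24 replicate 3 or J0 replicate 2 and 3 without J0 replicate 3. MYB genes included 2 up-regulated and 4 down-regulated of 105, the decreases numbering 7 without J0 replicate 1 and 8 without J0 replicate 2. The bHLH genes numbered 1 and 3 of 79, the decreases 1 without J24 replicate 3 and 5 without J0 replicate 2, and bZIP genes 0 and 2 of 31. Ethylene response factors included 10 up-regulated and 5 down-regulated members of 107, the increases numbering 2 without J24 replicate 3, 3 without J0 replicate 3, 4 without J0 replicate 1 and 6 without J24 replicate 2 and the decreases 2 without J0 replicate 3 and 3 without J24 replicate 1 or 3. Leaving out 1 library ended the HD-ZIP calls of HOX7 without J24 replicate 3 or J0 replicate 2 or 3 (adjusted p = 0.0536 to 0.0888), HOX11 without J24 replicate 3 (adjusted p = 0.0617) and HOX15 without J0 replicate 3 (log2 fold change -0.92).

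The SiDREBs are the factors at the center of the study, which describes DREB proteins as binding dehydration-responsive elements. In the deposited descriptions SiDREB159, SiDREB137 and SiDREB16 are named as ethylene response factors, so this list shares genes with the list of those factors above. Of 102 tested SiDREBs 9 were up-regulated and 6 were down-regulated, with a median of 0.03. These counts were 8.82% and 5.88% of the list, against 5.36% and 2.06% of all genes tested, while the median was that of all genes. SiDREB159 (Seita.9G509400) had 166, 44.4 and 48.8 FPKM in J24, against 4.96, 45.0 and 8.16 FPKM in J0 (log2 fold change 2.41 ± 0.64, adjusted p = 0.0195), with J0 replicate 2 inside the J24 range. SiDREB137 (Seita.8G046300) had 2.25, 9.90 and 8.42 FPKM in J24, against 0.627, 1.74 and 0.267 FPKM in J0 (log2 fold change 1.96 ± 0.49, adjusted p = 0.0141). SiDREB16 (Seita.1G257300) had 3.30, 8.52 and 4.603 FPKM in J24, against 13.0, 23.5 and 15.0 FPKM in J0 (log2 fold change -1.53 ± 0.34, adjusted p = 0.00731). The 9 increases numbered 2 without J24 replicate 3, 3 without J0 replicate 3 and 5 without J0 replicate 1 and the 6 decreases 3 without J24 replicate 1, and calls were lost for SiDREB159 without J24 replicate 1 or J0 replicate 1 or 3 (adjusted p = 0.0807 to 0.0839) and SiDREB137 without J24 replicate 2 or 3 or J0 replicate 3 (adjusted p = 0.0585 to 0.0689). SiDREB137 did not pass by limma voom (adjusted p = 0.0558).

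Among enzymes that remove reactive oxygen the calls went 1 way. Of 43 antioxidant genes 8 were up-regulated and 0 were down-regulated, with a median of 0.50 and a summed level of 7314, 6964 and 7499 FPKM in J24, against 5110.4, 5089 and 5146 FPKM in J0. The increases numbered 4 without J24 replicate 3 or J0 replicate 3. Peroxiredoxin-2F (Seita.5G049600), a mitochondrial peroxide scavenger, had 23.5, 26.9 and 30.1 FPKM in J24, against 11.8, 6.39 and 8.26 FPKM in J0 (log2 fold change 1.54 ± 0.25, adjusted p = 0.00178). Chloroplast glutathione reductase (Seita.9G262500) had 3.70, 6.98 and 8.97 FPKM in J24, against 1.92, 1.38 and 1.66 FPKM in J0 (log2 fold change 1.44 ± 0.35, adjusted p = 0.0122). Glutathione S-transferases, which couple glutathione to toxic compounds, included 9 up-regulated and 1 down-regulated of 78, the increases numbering 3 without J24 replicate 3 or J0 replicate 3. GST 23 (Seita.4G241000) had 1.47, 5.58 and 6.54 FPKM in J24, against 0.685, 0.0359 and 0.216 FPKM in J0 (log2 fold change 1.95 ± 0.44, adjusted p = 0.00799), and another transferase (Seita.5G452100) had 13.9, 13.2 and 28.0 FPKM in J24, against 3.79, 8.17 and 2.26 FPKM in J0 (log2 fold change 1.81 ± 0.44, adjusted p = 0.0121). Transferase Seita.5G452900 moved the other way, with 4.94, 6.37 and 7.07 FPKM in J24, against 14.0, 13.8 and 15.2 FPKM in J0 (log2 fold change -1.11 ± 0.17, adjusted p = 0.00125). Calls were lost for glutathione reductase without J24 replicate 3 (adjusted p = 0.0684), transferase Seita.5G452100 without J24 replicate 3 or J0 replicate 3 (adjusted p = 0.0666 to 0.0698) and transferase Seita.5G452900 without J24 replicate 1 (log2 fold change -0.99).

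Class III peroxidases, which act in the cell wall, were split, with 4 up-regulated and 5 down-regulated of 87. The increases numbered 2 without J24 replicate 2 or 3 or J0 replicate 3, and the decreases 3 without J24 replicate 1 or J0 replicate 3. Peroxidase 64 (Seita.1G380000), of a name tied to the lignin of Casparian strips in Arabidopsis, had 7.66, 8.64 and 11.6 FPKM in J24, against 0.843, 1.64 and 2.66 FPKM in J0 (log2 fold change 1.96 ± 0.33, adjusted p = 0.0022). Peroxidase 15 (Seita.J031700) had 3.85, 4.47 and 7.49 FPKM in J24, against 0.793, 2.68 and 1.37 FPKM in J0 (log2 fold change 1.28 ± 0.42, adjusted p = 0.049). Peroxidase 2 (Seita.1G170200) had 2.38, 3.66 and 2.01 FPKM in J24, against 8.94, 13.5 and 13.3 FPKM in J0 (log2 fold change -1.81 ± 0.30, adjusted p = 0.00183). Its J24 libraries lay clearly below J0, while peroxidase 15 was near the limit of the test. Cytochrome P450 genes, a large family of oxidases, included 13 up-regulated and 5 down-regulated of 131. P450 704C1 (Seita.9G347500) had 35.2, 32.5 and 56.8 FPKM in J24, against 0.643, 9.51 and 5.03 FPKM in J0 (log2 fold change 3.13 ± 0.80, adjusted p = 0.0154). The P450 increases numbered 5 without J24 replicate 3, 7 without J0 replicate 3 and 8 without J0 replicate 1, the decreases 2 without J24 replicate 1 and 3 without J24 replicate 3 or J0 replicate 1, and calls were lost for peroxidase 15 without any J24 replicate or J0 replicate 1 or 3 (adjusted p = 0.0615 to 0.19) and P450 704C1 without J24 replicate 3 or J0 replicate 1 (adjusted p = 0.0649 to 0.0679). Peroxidase 15 also did not pass with the replicate block (adjusted p = 0.0574), with the block and median-ratio scaling (adjusted p = 0.0566), after quantile normalization (adjusted p = 0.0700) or by limma voom (adjusted p = 0.135).

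Cell wall and lignin genes held a smaller share of increases and a larger share of decreases than all genes tested, on counts of 3 or 4 genes each. Up-regulated genes made up 4.29% of the expansin list and 3.49% of the lignin list, against 5.36% of all genes tested. Down-regulated genes made up 5.71% and 3.49%, against 2.06%. Expansins loosen the wall, and of 70 expansins and related wall enzymes 3 were up-regulated, or 1 without J24 replicate 3 or J0 replicate 1, and 4 down-regulated, or 2 without J24 replicate 3. Expansin-B12 (Seita.9G157100) had 41.6, 33.2 and 50.7 FPKM in J24, against 11.02, 3.16 and 6.06 FPKM in J0 (log2 fold change 2.58 ± 0.49, adjusted p = 0.00344). Expansin-B3 (Seita.9G326100) had 54.3, 93.5 and 114 FPKM in J24, against 243, 149.9 and 309 FPKM in J0 (log2 fold change -1.42 ± 0.30, adjusted p = 0.00612). Lignin and phenylpropanoid genes were split, with 3 up-regulated of 86, or 1 without J24 replicate 3 or J0 replicate 1, and 3 down-regulated, or 1 without J0 replicate 1 and 5 without J0 replicate 2. Expansin-B3 fell and B12 rose, both without overlap between groups. Laccase-25 (Seita.3G297100), of a family that joins lignin units, had 179, 132 and 257 FPKM in J24, against 4.56, 27.0 and 18.1 FPKM in J0 (log2 fold change 3.67 ± 0.91, adjusted p = 0.0141). Phenylalanine ammonia-lyase (PAL), the entry enzyme of the route, had 2 down-regulated genes. PAL gene Seita.1G240200 had 47.8, 61.8 and 42.0 FPKM in J24, against 154, 132 and 90.3 FPKM in J0 (log2 fold change -1.28 ± 0.21, adjusted p = 0.00171), and PAL gene Seita.6G181000 had 43.4, 41.6 and 36.8 FPKM in J24, against 146, 77.4 and 81.2 FPKM in J0 (log2 fold change -1.24 ± 0.25, adjusted p = 0.00491). The J24 libraries of both were below all J0 libraries. Calls were lost for laccase-25 without J24 replicate 3 or J0 replicate 1 (adjusted p = 0.0568 to 0.0617) and PAL Seita.6G181000 without J0 replicate 1 (log2 fold change -0.95).

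Wax and cutin genes were split, with 3 up-regulated of 55, near the share of all genes tested. There were 3 down-regulated, or 0 without J24 replicate 3 and 1 without J24 replicate 1 or J0 replicate 3. 3-Ketoacyl-CoA synthases lengthen fatty acids for wax, and synthase 11 (Seita.3G137500) had 11.6, 20.3 and 30.3 FPKM in J24, against 0.401, 1.63 and 0.494 FPKM in J0 (log2 fold change 3.52 ± 0.63, adjusted p = 0.00262), while synthase 3 (Seita.1G362000) had 4.31, 10.9 and 6.18 FPKM in J24, against 16.8, 25.4 and 20.6 FPKM in J0 (log2 fold change -1.49 ± 0.38, adjusted p = 0.0148). Lipid transfer proteins, which carry lipids to the cuticle among other tasks, included 6 up-regulated and 0 down-regulated of 46, a count that was 2 without J24 replicate 3 and 3 without J0 replicate 2. The GPI-anchored lipid transfer protein 7 (Seita.4G258000) had 62.6, 93.6 and 138 FPKM in J24, against 20.1, 41.5 and 17.48 FPKM in J0 (log2 fold change 1.88 ± 0.43, adjusted p = 0.00872). Pathogenesis-related proteins included 12 up-regulated and 5 down-regulated of 105, the increases numbering 4 without J24 replicate 3 and 6 without J0 replicate 3 and the decreases 8 without J0 replicate 1. Endochitinase A (Seita.7G150500), which cuts fungal cell walls, had 37.3, 44.6 and 109 FPKM in J24, against 3.81, 12.5 and 6.66 FPKM in J0 (log2 fold change 2.86 ± 0.55, adjusted p = 0.00365). Glucan endo-1,3-beta-glucosidase 4 (Seita.9G389200) had 51.4, 82.3 and 143 FPKM in J24, against 17.47, 12.4 and 10.9 FPKM in J0 (log2 fold change 2.58 ± 0.49, adjusted p = 0.00344). Thaumatin-like protein 1 (Seita.9G471900) had 5.74, 11.8 and 8.55 FPKM in J24, against 30.8, 22.8 and 36.2 FPKM in J0 (log2 fold change -1.70 ± 0.32, adjusted p = 0.00329). Calls were lost for synthase 3 without J24 replicate 1 or 3 (adjusted p = 0.0581 to 0.0608) and lipid transfer protein 7 without J24 replicate 3 (adjusted p = 0.0527).

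Among nutrient genes increases outnumbered decreases, as they did among all DEGs, of which 72.2% were up-regulated. Iron and zinc genes included 8 up-regulated and 0 down-regulated of 47, a count that was 3 without J24 replicate 3. Vacuolar iron transporter 2 (Seita.2G197500), which stores iron in vacuoles, had 61.9, 65.9 and 103 FPKM in J24, against 7.64, 31.2 and 13.1 FPKM in J0 (log2 fold change 2.27 ± 0.55, adjusted p = 0.0118). Nicotianamine aminotransferase 1 (Seita.8G214400), of the synthesis of iron-binding mugineic acids in grasses, had 73.1, 94.3 and 113 FPKM in J24, against 26.1, 32.3 and 29.0 FPKM in J0 (log2 fold change 1.63 ± 0.46, adjusted p = 0.0256). Phosphate genes included 8 up-regulated and 2 down-regulated of 54, the increases numbering 2 without J24 replicate 3 and 3 without J0 replicate 2 or 3. The 8 and 2 genes were 14.8% and 3.70% of the list, against 5.36% and 2.06% of all genes tested. Purple acid phosphatase 22 (Seita.8G033400) had 7.01, 17.52 and 19.7 FPKM in J24, against 1.91, 0.813 and 1.76 FPKM in J0 (log2 fold change 2.57 ± 0.59, adjusted p = 0.00902). Calls were lost for the iron transporter without J24 replicate 3 (adjusted p = 0.0596) and nicotianamine aminotransferase without J24 replicate 2 or 3 or J0 replicate 1 or 3 (adjusted p = 0.0621 to 0.101).

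Grouped by the deposited gene ontology terms instead, 640 terms had 20 to 300 tested genes, and the leading ones held members of the lists above. The largest shares of up-regulated genes were found for protein complex oligomerization, with 12 of 24, ribosomal small subunit assembly, with 10 of 21, and the cytosolic small and large ribosomal subunits, with 29 of 71 and 40 of 103. Next came positive regulation of transcription in response to heat stress, with 8 of 22. The largest shares of down-regulated genes were smaller, at 10 of 64 for response to gibberellin, 4 of 26 for phosphorelay signal transduction, 6 of 40 for cytokinin-activated signaling, 4 of 28 for lysosome and 3 of 22 for karyogamy. The last 2 terms also held 7 and 4 up-regulated genes.

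Markers of other tissues were read by list. The Casparian strip membrane protein of the root endodermis (Seita.6G002300) was at or under 0.431 FPKM in all 6 libraries. The knotted-like meristem homeobox gene Seita.3G050400 had 0.659, 1.92 and 1.10 FPKM in J24, against 0, 0 and 0.142 FPKM in J0 (log2 fold change 1.05 ± 0.19, adjusted p = 0.00305). The list of meristem homeobox genes summed to 602, 694 and 668 FPKM in J24, against 755, 762 and 844 FPKM in J0. Of 5 tested pollen markers 0 passed limma's test and 0 had an unadjusted p under 0.05. The list summed to 136, 161 and 247 FPKM in J24, against 182, 318 and 123 FPKM in J0. Of 7 tested seed storage and oil body markers 3 were up-regulated, with a summed level of 126, 106 and 113 FPKM in J24, against 73.4, 76.9 and 57.2 FPKM in J0. They include oleosin Zm-II (Seita.9G128500), which had 1.46, 2.64 and 5.23 FPKM in J24, against 0.200, 0 and 0 FPKM in J0 (log2 fold change 1.85 ± 0.39, adjusted p = 0.00601), and oleosin Seita.3G136400, which had 16.7, 8.77 and 13.4 FPKM in J24, against 8.72, 2.45 and 3.23 FPKM in J0 (log2 fold change 1.38 ± 0.41, adjusted p = 0.0329). LEA proteins, also known from seeds, moved with them, and the part of other tissues in these results was not tested. Calls were lost for the homeobox gene without J24 replicate 2 (log2 fold change 0.83) and oleosin Seita.3G136400 without J24 replicate 1 or 3 or J0 replicate 2 or 3 (adjusted p = 0.104 to 0.119).

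The same 24 h interval in B175, which shares no library with J24 vs J0, gave 2435 up-regulated genes, 10.2% of those tested, and 1435 down-regulated genes, 6.02% of those tested. Of the genes up-regulated in JK3, 916 were also up-regulated in B175, or 71.8% of the JK3 list and 37.6% of the B175 list. Of the genes down-regulated in JK3, 300 were also down-regulated in B175, or 61.1% and 20.9%. Opposite calls were found for 1 and 5 genes. The difference in change, JK3 minus B175 in log2 fold change, was tested directly, and 600 genes, 2.52% of those tested, differed at an adjusted p under 0.05. For 124 of them, or 0.52%, the log2 fold change was higher in JK3, and for 476, or 2.0%, it was lower in JK3. This count rested heavily on single libraries, with 1938 without B24 replicate 2, 286 without B0 replicate 3, 303 without B24 replicate 1 and 314 without J24 replicate 2. The split also moved with the scaling between libraries, since after median-ratio scaling 49.4% of the B175 DEGs were up-regulated, against 62.9% on the FPKM as deposited, and 34.8% of the differences were higher in JK3, against 20.7%.

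In the lists the B175 change was often the larger in median. For LEA proteins 15 of 18 were up-regulated in B175 with a median of 2.71, and the change of 5 was lower in JK3. That number was 3 without B24 replicate 1 and 10 without B24 replicate 2. For heat shock proteins 53 of 86 were up-regulated with a median of 1.61, and the change of 12 was lower in JK3. It was 5 without B0 replicate 3 and 37 without B24 replicate 2. Photosystem genes included 28 of 60 down-regulated in B175 with a median of -0.95. In limma's test of the difference 0 of the 60 had an adjusted p under 0.05, against 2.52% of all genes tested. At an unadjusted p under 0.05 there were 7, against 3737 of all 23824 genes tested. These counts are too near those of all genes to set the list apart. Cytosolic ribosomal proteins had a median of 0.88 in JK3 and 0.83 in B175, with 58 up-regulated in B175. Among lignin genes the change of 11 of 86 was lower in JK3, with 6 without B0 replicate 3 and 15 without J0 replicate 2.

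For several protective genes the 24 h libraries of the varieties overlapped and the 0 h libraries did not. The dehydrin Seita.8G115400, which was already high in J0, had 6801, 2223 and 6129 FPKM in B24, against 7.15, 24.4 and 6.95 FPKM in B0, a difference of -6.28 ± 0.64, adjusted p = 0.000227. The LEA group 3 gene Seita.3G162400 had 2715, 308 and 2775 FPKM in B24, against 1.39, 0.476 and 0.458 FPKM in B0, a difference of -4.73 ± 0.97, adjusted p = 0.0167. Beta-amylase 1 (Seita.9G229700) had 272, 236 and 245 FPKM in B24, against 4.29, 6.64 and 4.22 FPKM in B0, a difference of -2.99 ± 0.37, adjusted p = 0.000786. The J0 level of each of the 3 lay above all B0 libraries. The raffinose synthase Seita.2G081000 had 647, 159 and 509 FPKM in B24, against 9.997, 12.1 and 9.26 FPKM in B0, a difference of -3.07 ± 0.65, adjusted p = 0.019, and the sodium/hydrogen exchanger Seita.4G138500 had 29.1, 14.1 and 29.4 FPKM in B24, against 0.352, 0.470 and 0.619 FPKM in B0, a difference of -1.89 ± 0.45, adjusted p = 0.0348. Both again were lower in every B0 library than in any J0 library. The difference was lost for the LEA gene without B24 replicate 1 (adjusted p = 0.0504), the raffinose synthase without J24 replicate 2 or B24 replicate 1 or B0 replicate 3 (adjusted p = 0.0554 to 0.0562) and the exchanger without J24 replicate 1 or 2 or J0 replicate 2 or 3 or B24 replicate 1 or 3 or any B0 replicate (adjusted p = 0.0666 to 0.0973). By limma voom the difference did not pass for the LEA gene (adjusted p = 0.171) or the exchanger (adjusted p = 0.0581). With no filter on low values it did not pass for the exchanger (adjusted p = 0.0529).

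For EDA40 and the cysteine proteinase inhibitor genes J24 and B24 lay far apart. EDA40 (Seita.7G008800), a ubiquitin ligase by name, had 8.79, 6.18 and 1.66 FPKM in J24, against 10.8, 12.3 and 12.7 FPKM in J0, and 78.5, 153 and 280.3 FPKM in B24, against 0.298, 2.38 and 1.06 FPKM in B0, a difference of -7.35 ± 0.67, adjusted p = 0.000155. Cysteine proteinase inhibitor 8 (Seita.8G072100) had 37.4, 26.9 and 21.8 FPKM in J24, against 56.1, 75.6 and 129 FPKM in J0, and 215, 592 and 367 FPKM in B24, against 3.91, 23.9 and 7.10 FPKM in B0, a difference of -6.69 ± 0.71, adjusted p = 0.000237. Its neighbor of the same name, Seita.8G072200, had 3.84, 1.38 and 0.860 FPKM in J24, against 2.76, 3.27 and 6.30 FPKM in J0, and 73.6, 387 and 199 FPKM in B24, against 2.52, 10.4 and 3.04 FPKM in B0, a difference of -5.86 ± 0.77, adjusted p = 0.00116. In each case B175 was up-regulated while JK3 did not pass the test. PAL gene Seita.1G240200, down-regulated in JK3, had 80.7, 93.5 and 63.3 FPKM in B24, against 49.3, 54.5 and 43.2 FPKM in B0 (log2 fold change 0.67 ± 0.21, adjusted p = 0.0216), a difference of -1.95 ± 0.30, adjusted p = 0.00254. Differences toward JK3 were smaller. Vacuolar iron transporter 2 (Seita.2G197500) had 24.1, 74.2 and 29.6 FPKM in B24, against 65.1, 48.2 and 117 FPKM in B0 (log2 fold change -0.91 ± 0.55, adjusted p = 0.218), a difference of 3.18 ± 0.77, adjusted p = 0.0385. TIFY 11a (Seita.9G518100) was raised in JK3 and had 5.54, 9.50 and 9.75 FPKM in B24, against 17.2, 27.2 and 27.9 FPKM in B0 (log2 fold change -1.44 ± 0.42, adjusted p = 0.0141), a difference of 2.85 ± 0.59, adjusted p = 0.0169. Agmatine hydroxycinnamoyltransferase 1 (Seita.8G188300), which makes defense amides in barley, had 5.19, 6.51 and 11.6 FPKM in J24, against 0, 0.502 and 0.0186 FPKM in J0 (log2 fold change 2.86 ± 0.41, adjusted p = 0.000937) and 0.392, 0.0782 and 0.278 FPKM in B24, against 0.0187, 0 and 0 FPKM in B0 (log2 fold change 0.30 ± 0.41, adjusted p = 0.614), a difference of 2.56 ± 0.58, adjusted p = 0.0277. Leaving out 1 library ended the difference for the iron transporter without any J24 replicate or J0 replicate 1 or 3 or B24 replicate 1 or 3 or B0 replicate 1 or 3 (adjusted p = 0.0568 to 0.112), TIFY 11a without B24 replicate 1 or B0 replicate 3 (adjusted p = 0.0519 to 0.0535) and the transferase without J24 replicate 2 or 3 or J0 replicate 1 or 3 or B24 replicate 1 or 3 or any B0 replicate (adjusted p = 0.0533 to 0.071). The transferase did not pass by limma voom (adjusted p = 0.673) or with a pseudocount of 0.1 (adjusted p = 0.0887). The iron transporter did not pass with no filter on low values (adjusted p = 0.0646).

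**Figure D5:**
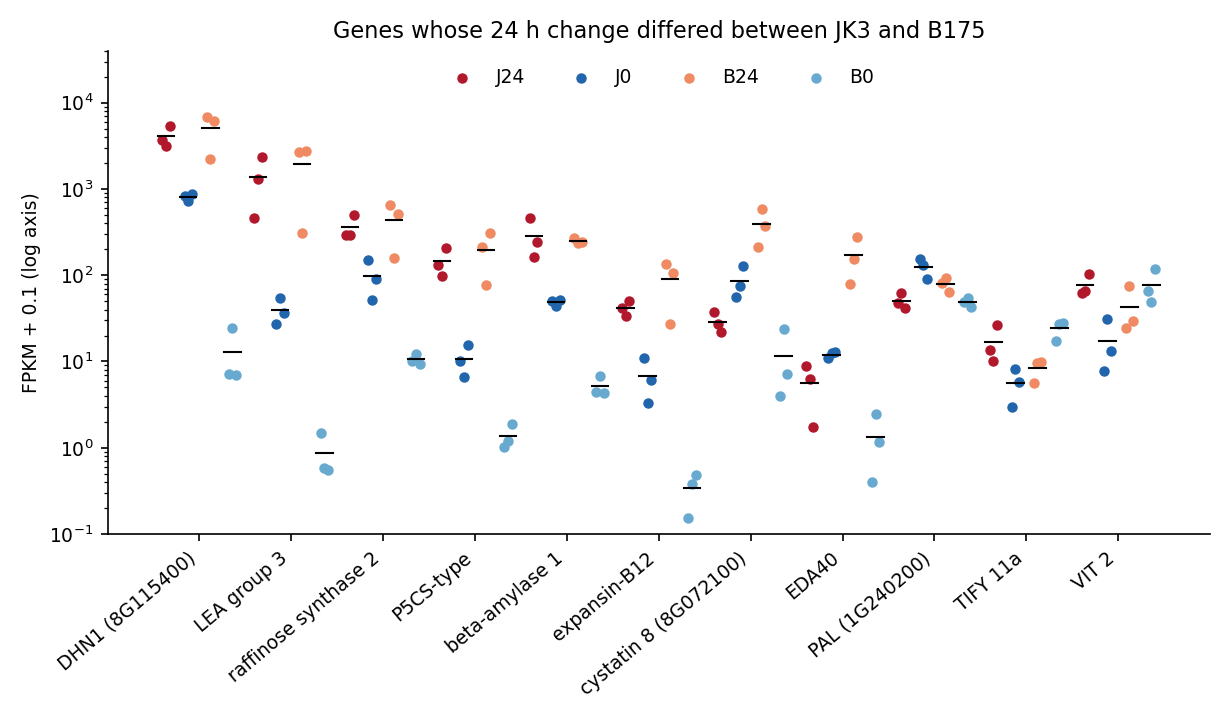
FPKM plus 0.1 (log axis) of 11 genes whose 24 h change differed between JK3 and B175, in each library of J24 (red), J0 (dark blue), B24 (orange) and B0 (light blue), with a short line at the group mean. For the dehydrin at the left the J24 points (3162 to 5371 FPKM) and B24 points (2223 to 6801 FPKM) overlap, while J0 (720.2 to 865 FPKM) lies far above B0 (6.95 to 24.4 FPKM).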

How the data were processed

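Leaf RNA libraries of JK3 and B175 at 0, 12 and 24 h, 3 for each group, were analysed from 1 table. The authors deposited FPKM values, made per the processing notes with fastp, HISAT2 and HTSeq, with R 3.2.0 and DESeq2 named for later steps. The notes name the build mm10, a mouse build, while the identifiers are of foxtail millet, so no coordinates or sequences are given. Strand handling is not given in the sources used here, and overlapping genes cannot be told apart. Whole fragments were recovered from the FPKM steps for 100% of 29108 genes, and 96.7% of whole implied lengths were multiples of 3, which marks coding length.

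Genes that averaged 0.1 FPKM or more across all libraries were tested as log2(FPKM + 1) with limma 3.58.1 (trend, two-sided) in R 4.3.3, in 1 fit of all 6 groups, with contrasts for J24 minus J0, B24 minus B0 and their difference. The spread is thus shared by all groups, and a group left with fewer libraries is assumed to vary like the others. On simulated data with 200 genes changed 4-fold for J24 vs J0, 99% were called among 22344 genes tested, with 1 unchanged gene called. In the test of the difference between varieties 87% passed, with 7 unchanged genes. The changed genes were drawn from well-covered genes, and all genes were given the same relative spread between replicates. Changed genes with few fragments and libraries that stand apart were therefore not covered. Gene lists were built from the deposited descriptions, 20331 of which were filled, and the study's SiDREB identifiers, 128 of 166 of which were in the table. Named genes are the 12 largest changes in each direction among described DEGs of at least 1 FPKM without overlap, a choice of the 2 largest DEGs in each direction of each list (the most abundant member where none was called), measured clock and C4 genes, and a choice of the 5 largest differences between varieties in each direction. Members and lists were chosen with earlier results of these data known. Alternatives were another pseudocount, filter, scaling, model, sample set, a replicate block and leaving out each library. Python 3.11.15 with pandas 2.3.3 made the tables.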

Additional observations from a re-analysis of the deposited data

Results flagged for a closer look

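For 20 of the genes named in the report the 24 h change differed between JK3 and B175 in limma's test of the difference, at an adjusted p under 0.05 over all 23824 genes tested. The largest differences lay on the side of a lower change in JK3. On the log2(FPKM + 1) scale, JK3 minus B175, they were -7.35 for EDA40, -6.69 and -5.86 for the neighboring cysteine proteinase inhibitor genes, -6.28 for the dehydrin Seita.8G115400 and -4.73 for the LEA group 3 gene. The sugar and transport genes followed, with -3.07 for raffinose synthase 2, -2.99 for beta-amylase 1 and -1.89 for sodium/hydrogen exchanger 4.

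Genes of the wall, the phenylpropanoid route and redox were in the same direction. The differences were -3.33 for expansin-B12, -2.98 for peroxidase 2, -2.77 for peroxidase 4, -1.95 and -2.01 for the PAL genes Seita.1G240200 and Seita.6G181000, and -1.55 for the glutathione S-transferase Seita.5G452900. Expansin-B12 had 136, 26.8 and 106 FPKM in B24, against 0.0553, 0.284 and 0.382 FPKM in B0, so that J0 lay above B0 while J24 and B24 overlapped. Peroxidase 4 had 0.802, 3.75 and 0.704 FPKM in B24, against 1.05, 1.84 and 1.43 FPKM in B0, and peroxidase 2 had 4.26, 4.85 and 3.13 FPKM in B24, against 0.535, 2.12 and 1.33 FPKM in B0. Both peroxidases fell in JK3.

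Proline genes and a homeobox gene completed the list. The difference was -2.59 for the gene of proline synthesis, which had 212, 77.1 and 306 FPKM in B24, against 0.913, 1.11 and 1.79 FPKM in B0, and -1.75 for proline dehydrogenase 2, which had 24.8, 16.8 and 15.6 FPKM in B24, against 15.4, 12.3 and 10.5 FPKM in B0. For HOX24 the difference was -2.35, with 458, 345 and 382 FPKM in B24, against 18.4, 21.8 and 32.9 FPKM in B0. A higher change in JK3 was found for 3 genes, with differences of 3.18 for vacuolar iron transporter 2, 2.85 for TIFY 11a and 2.56 for agmatine hydroxycinnamoyltransferase 1. None of the 20 differences changed sign in the alternatives that were run. Between 11 and 20 of them stayed past the limit, with 11 without B24 replicate 1, 12 without J24 replicate 2, 13 without B0 replicate 3, 14 by limma voom and 15 with no filter on low values. Beyond the genes whose losses are given in the report, leaving out 1 library ended the difference for HOX24 without J24 replicate 2 or 3 or J0 replicate 2 or 3 or B24 replicate 1 or 3 or B0 replicate 1 or 2 (adjusted p = 0.0585 to 0.0846), the gene of proline synthesis without J24 replicate 1 or 2 or J0 replicate 1 or 3 or B24 replicate 1 or 3 or any B0 replicate (adjusted p = 0.0739 to 0.126), proline dehydrogenase without J24 replicate 1 or 2 or B24 replicate 1 or B0 replicate 2 or 3 (adjusted p = 0.0678 to 0.0969) and expansin-B12 without J24 replicate 2 (adjusted p = 0.0513). By limma voom the difference did not pass for expansin-B12 (adjusted p = 0.123), peroxidase 4 (adjusted p = 0.0503) or the gene of proline synthesis (adjusted p = 0.0743). With no filter it did not pass for the last (adjusted p = 0.0763), HOX24 (adjusted p = 0.0531) or proline dehydrogenase (adjusted p = 0.0515), nor for HOX24 with the block and median-ratio scaling (adjusted p = 0.0606).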

How the results depend on the processing

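The count of 1767 DEGs in J24 vs J0 ranged from 1016 to 2047 on leaving out 1 library, with 1016 without J24 replicate 3 and 1153 without J0 replicate 3, and reached 5856 where a mean FPKM ratio above 2 or under 0.5 was taken with no test. It was 2303 with a pseudocount of 0.1, 1581 with no filter, 1827 after median-ratio scaling, 1724 after quantile normalization, 2094 by limma voom on the recovered fragments, 1204 with the J0 and J24 libraries alone and 1689 with the 9 JK3 libraries. The share of up-regulated DEGs was 66.6% after median-ratio scaling and 62.4% after quantile normalization, against 72.2%. The difference between varieties, with 600 genes, ranged from 286 to 1938 on leaving out 1 library, with 303 without B24 replicate 1 and 314 without J24 replicate 2. The cause of these moves was not tested. The 3870 DEGs in B24 vs B0 ranged from 2844 to 5415.

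Replicate numbers did not pair the libraries, since same-numbered J24 and J0 libraries deviated together with correlations of 0.13, -0.01 and -0.08, and 1 of 3 J24 libraries matched its own number best. For B24 and B0 the correlations were 0.29, 0.30 and -0.003, with 2 of 3 matching their own number best, so not every pair was over 0.1. With a replicate block there were 1766 DEGs in J24 vs J0, 3872 in B24 vs B0 and 576 differences between varieties. With the block and median-ratio scaling together, added after seeing the data, there were 1835 DEGs. Of the 133 named genes called in J24 vs J0, none reversed in the alternatives run. Their calls were lost for 0 after median-ratio scaling, 1 (peroxidase 15) with the replicate block, 11 by limma voom, 12 with no filter, 6 after quantile normalization, 45 without J24 replicate 3, 33 without J0 replicate 3 and 39 with the J0 and J24 libraries alone. Leaving out J0 replicate 2, which stood apart, ended 12. With 3 libraries a group, calls of large changes, such as those of LEA 31 and laccase-25, depended on single libraries, as did changes near the fold limit. Genes with few fragments are understated by the pseudocount.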

Other observations

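Further gene groups stood out by name when the DEGs were read through. They were chosen after their values were seen and are given as descriptions, beside 5.36% of all genes up-regulated and 2.06% down-regulated. Early light-inducible proteins bind pigments in stressed or greening chloroplasts. Of these, 4 of 5 tested members were up-regulated and 0 were down-regulated, with a median log2 fold change of 2.69. The gene Seita.2G053800 had 391, 244 and 381 FPKM in J24, against 96.9, 26.5 and 49.5 FPKM in J0 (log2 fold change 2.69 ± 0.53, adjusted p = 0.00442), and its neighbor Seita.2G053700 had 125, 59.1 and 98.8 FPKM in J24, against 11.5, 2.55 and 3.74 FPKM in J0 (log2 fold change 3.94 ± 0.61, adjusted p = 0.00128). Their neighboring identifiers on chromosome 2 carry 1 name, and fragments may have been divided between them. This rise contrasts in direction with the light-harvesting genes, which had a median log2 fold change of -0.48. Phytochrome-interacting factors hold back greening and promote elongation in Arabidopsis. Of these, 0 of 5 tested members were up-regulated and 3 were down-regulated, with a median log2 fold change of -1.50. The gene Seita.9G067200 had 21.3, 65.6 and 40.8 FPKM in J24, against 125, 139 and 154 FPKM in J0 (log2 fold change -1.82 ± 0.34, adjusted p = 0.00344), and Seita.5G034000 had 5.18, 7.25 and 6.61 FPKM in J24, against 11.8, 33.2 and 29.3 FPKM in J0 (log2 fold change -1.70 ± 0.27, adjusted p = 0.00139).

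SWEET proteins let sugars pass membranes, and 4 of 13 tested members were up-regulated and 0 were down-regulated, with a median log2 fold change of 0.14. SWEET15 (Seita.1G171800) had 7.26, 25.4 and 67.1 FPKM in J24, against 2.94, 0.734 and 0.354 FPKM in J0 (log2 fold change 3.55 ± 0.74, adjusted p = 0.00553), with J24 replicate 3 far above replicate 1. SWEET6b (Seita.5G218600) had 11.6, 28.4 and 31.8 FPKM in J24, against 1.25, 4.28 and 3.55 FPKM in J0 (log2 fold change 2.61 ± 0.75, adjusted p = 0.0267). The SWEET count was 1 without J24 replicate 3 or J0 replicate 3, and SWEET6b lost its call without J24 replicate 2 or 3 or J0 replicate 1 or 3 (adjusted p = 0.064 to 0.106). By limma voom neither SWEET15 (adjusted p = 0.0640) nor SWEET6b (adjusted p = 0.0609) passed. Of 34 tested amino acid transporters 6 were up-regulated and 1 was down-regulated, with a median log2 fold change of 0.04. The vacuolar type AVT6A (Seita.1G054800) had 35.9, 97.2 and 106 FPKM in J24, against 3.97, 17.1 and 5.995 FPKM in J0 (log2 fold change 3.09 ± 0.61, adjusted p = 0.00437), and amino acid permease 7 (Seita.7G132700) had 157, 155 and 179.5 FPKM in J24, against 43.8, 70.4 and 57.2 FPKM in J0 (log2 fold change 1.53 ± 0.27, adjusted p = 0.00262). In the NRT1/PTR family, which carries nitrate, peptides and hormones, 9 of 67 tested members were up-regulated and 5 were down-regulated, with a median log2 fold change of -0.12, the increases numbering 4 without J24 replicate 3 and the decreases 1 without J24 replicate 3 and 3 without J24 replicate 2 or J0 replicate 1.

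Among receptor kinases at the cell surface decreases outnumbered increases. Of the cysteine-rich type, 2 of 67 tested members were up-regulated and 7 were down-regulated, with a median log2 fold change of -0.26. Kinase 15 (Seita.2G340400) had 2.70, 1.60 and 1.42 FPKM in J24, against 10.4, 21.6 and 6.73 FPKM in J0 (log2 fold change -2.14 ± 0.37, adjusted p = 0.00221). Of the wall-associated type, 0 of 73 tested members were up-regulated and 3 were down-regulated, with a median log2 fold change of -0.18, and kinase 4 (Seita.8G242300) had 9.89, 19.8 and 11.9 FPKM in J24, against 39.8, 76.5 and 56.7 FPKM in J0 (log2 fold change -1.99 ± 0.27, adjusted p = 0.000754). Disease resistance proteins had 5 increases and 6 decreases among 317 members, both under the shares of all genes for a family of this size, and the counts were 0 without J24 replicate 3 or J0 replicate 3 and 2 without J0 replicate 1 for increases and 11 without J24 replicate 2 for decreases.

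Subunits of the mitochondrial inner membrane import machinery included 6 up-regulated members of 25, and 24 had a positive log2 fold change, with a median of 0.57. Translation factors included 4 up-regulated members of 71, near the share of all genes, a count that was 7 without J0 replicate 2. Initiation factor 6-2 (Seita.5G038600) had 8.09, 11.7 and 26.1 FPKM in J24, against 0.594, 0.596 and 1.37 FPKM in J0 (log2 fold change 3.01 ± 0.47, adjusted p = 0.00131). Elongation factor 1-beta (Seita.2G421400) had 137, 145 and 152 FPKM in J24, against 65.2, 56.6 and 43.9 FPKM in J0 (log2 fold change 1.39 ± 0.27, adjusted p = 0.00368). The factor 6-2 was near 1 FPKM in every J0 library, and the beta subunit was already abundant there. The third PCC13-62 gene tested did not pass the test, so 2 of 3 did.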
